A study of Mus musculus with 8 samples.

Results

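The genes described here are the DNA replication machinery: 44 genes that load, activate and drive the replication fork and rebuild chromatin behind it. They were chosen by gene symbol, as every gene of a list of replication factors that has a probe on the array. All 44 of 44 were present, on 68 probes, among 21394 gene symbols, and all 44 were among the 13411 genes that passed the filter on dim probes. They were measured in LLC1 cells, a mouse Lewis lung carcinoma line of C57BL/6 origin that is cultured as a transplantable tumour model. Cells had received X-rays as a single dose of 2 Gy (3 arrays), as a single dose of 10 Gy (2 arrays) or as 5 fractions of 2 Gy, written 5x2 Gy (3 arrays), and RNA was taken 4 h after treatment. The labels number the arrays of each regimen as biological replicates out of 3, and of 10 Gy replicates 1 and 2 were analysed. Each array set RNA of irradiated LLC1 cells in Cy5 beside RNA of untreated LLC1 cells in Cy3. The dyes were never exchanged, so a gene-specific difference between the dyes cannot be told apart from a difference between irradiated and untreated cells. A dye difference shared by all arrays cancels in comparisons between regimens. The labels do not give the interval between fractions or say whether the biological replicates came from separate cultures, so p-values measure only the spread between these samples.

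As background, replication begins when the origin recognition complex, Cdc6 and Cdt1 load the MCM helicase onto DNA as an inactive ring. Cdc7 kinase with Dbf4, Mcm10, Cdc45 and the GINS complex then turn that ring into a moving helicase, DNA polymerase alpha with primase starts the new strands, and polymerases delta and epsilon extend them on the Pcna clamp that replication factor C loads. Fen1, Rnaseh2a and Lig1 finish the lagging strand, and Chaf1a, Chaf1b and Uhrf1 restore nucleosomes and DNA methylation. Many of these genes are transcribed under E2F factors as cells approach S phase. In a culture, fewer cells in S phase and less RNA per cell cannot be told apart by these arrays.

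Every value below is a log2 ratio of irradiated over untreated RNA after background correction and loess normalization, so that negative values mean less signal from irradiated cells. A value after ± is the standard error from limma, and "lower" means lower than untreated where its adjusted p across all 13411 genes was under 0.05. Between 34.7% and 47.5% of probes were above background in the irradiated channel and between 44.8% and 49.1% in the untreated channel. The SD of all genes' log2 ratios was 0.33 to 0.37 on the 2 Gy arrays, 0.69 and 0.46 on the 10 Gy arrays and 0.43 to 0.45 on the 5x2 Gy arrays, so 10 Gy replicate 1 stood apart from the other arrays. Image names in the file headers carry the number 1 for the 3 arrays of 2 Gy and 10 Gy replicate 1. They carry the number 2 for 10 Gy replicate 2 and the 3 arrays of 5x2 Gy. These numbers were read as slide 1 and slide 2, a reading that rests on the image names alone. In the untreated channel Krt8, Krt18 and Krt19 of 6 epithelial markers and Vim, Cdh2, Fn1 and Zeb1 of 6 mesenchymal markers were above background on all 8 arrays. The epithelial markers Epcam and Cdh1 were above background on none, as were the leukocyte markers Ptprc, Itgam and Csf1r. Of the other leukocyte markers Cd3e and Cd68 were above background on all 8 arrays, and 0 of 5 endothelial and 0 of 5 alveolar or airway markers were. Cdkn1a, which encodes the cyclin-dependent kinase inhibitor p21, had log2 ratios of 1.21, 0.55 and 0.89 after 2 Gy, 3.73 and 1.47 after 10 Gy and 1.35, 1.15 and 1.30 after 5x2 Gy.

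Promoters are shown for members that lead their role groups by the test over the 3 regimens, beside Cdc6, which was called in no regimen, and Mcm5, which was chosen after its values were seen. They are printed so that the letters of an E2F-type motif can be read against the response of the same gene. Each is 250 bases, 220 before to 30 after the annotated start, 5′ to 3′ on the strand of the gene, from RefSeq on build GRCm38.p6. Capitals mark matches to the E2F motif in the forms TTTCCCGC, TTTCGCGC, TTTGCCGC and TTTGGCGC, searched on both strands.
Lig1, chr7:13278606-13278855, plus strand: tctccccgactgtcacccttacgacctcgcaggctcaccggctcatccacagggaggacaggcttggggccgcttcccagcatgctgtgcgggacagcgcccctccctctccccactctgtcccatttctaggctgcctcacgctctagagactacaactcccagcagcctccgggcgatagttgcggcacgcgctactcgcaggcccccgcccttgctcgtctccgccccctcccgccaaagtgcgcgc
Rfc5, chr5:117388994-117389243, minus strand: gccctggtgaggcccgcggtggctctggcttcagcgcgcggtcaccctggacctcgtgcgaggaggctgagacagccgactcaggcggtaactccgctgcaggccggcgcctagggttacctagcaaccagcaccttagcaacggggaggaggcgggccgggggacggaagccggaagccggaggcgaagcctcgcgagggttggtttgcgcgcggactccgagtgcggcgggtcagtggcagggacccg
Uhrf1, chr17:56304093-56304342, plus strand: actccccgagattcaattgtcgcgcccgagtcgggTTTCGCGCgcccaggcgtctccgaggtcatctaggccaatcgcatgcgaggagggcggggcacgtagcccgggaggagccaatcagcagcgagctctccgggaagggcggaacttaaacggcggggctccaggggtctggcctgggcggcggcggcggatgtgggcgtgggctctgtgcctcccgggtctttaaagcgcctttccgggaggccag
Prim1, chr10:128014995-128015244, plus strand: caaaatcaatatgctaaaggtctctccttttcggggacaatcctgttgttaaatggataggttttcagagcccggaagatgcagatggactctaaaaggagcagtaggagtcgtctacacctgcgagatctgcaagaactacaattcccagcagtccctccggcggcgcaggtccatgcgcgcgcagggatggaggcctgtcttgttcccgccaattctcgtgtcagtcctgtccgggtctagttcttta
Cdc6, chr11:98907931-98908180, plus strand: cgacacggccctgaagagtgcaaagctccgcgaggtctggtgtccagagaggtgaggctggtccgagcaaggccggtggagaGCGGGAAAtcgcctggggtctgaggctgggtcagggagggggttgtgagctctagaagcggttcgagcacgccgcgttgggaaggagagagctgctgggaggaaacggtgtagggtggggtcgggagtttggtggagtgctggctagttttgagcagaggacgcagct
Mcm5, chr8:75109289-75109538, plus strand: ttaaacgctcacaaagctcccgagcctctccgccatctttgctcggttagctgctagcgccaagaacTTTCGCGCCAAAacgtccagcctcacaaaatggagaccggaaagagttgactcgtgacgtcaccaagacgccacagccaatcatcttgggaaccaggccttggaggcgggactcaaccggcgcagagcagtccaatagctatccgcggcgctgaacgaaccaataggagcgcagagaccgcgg
Where a gene had several listed windows, the one with the most matches was printed, as for Uhrf1 (of 2 windows) and Lig1 (of 3 windows). The other windows of Uhrf1 and Lig1 held 0 matches. The match in Uhrf1 began 185 bases before the start and that in Cdc6 138 bases before it. Mcm5 held 2 matches on opposite strands that overlap, beginning 153 and 149 bases before the start. The 1 match of Lig1 began 27 bases after the start and ran past the printed bases. Rfc5 and Prim1 held none, which says only that these letters are not in their windows.

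Of the 44 replication genes 32 were lower in irradiated than in untreated cells in at least 1 regimen, mostly by less than 1 log2 unit, and 0 were called higher in any regimen by this fit, where 8.99%, 12.4% and 17.6% of all genes were higher after 2 Gy, 10 Gy and 5x2 Gy. After 2 Gy 8 of 44 were lower (18.2%), against 7.93% of all genes called lower. After 10 Gy 25 of 44 were lower (56.8%), against 15.8% of all genes. After 5x2 Gy 23 of 44 were lower (52.3%), against 23.4% of all genes. The median log2 ratio of the 44 genes was -0.24 after 2 Gy, -0.55 after 10 Gy and -0.37 after 5x2 Gy, against -0.0029, -0.06 and -0.02 for all genes tested. The calls rest on 1 estimate of spread shared by all 8 arrays. With each regimen fitted on its own arrays 23, 0 and 29 members were lower after 2 Gy, 10 Gy and 5x2 Gy, against 17.8%, 0.947% and 32.7% of all genes, and Rfc2 and Chaf1a were higher after 5x2 Gy. With the slide as a random block 0, 12 and 7 were lower, against 0.0895%, 5.81% and 3.42% of all genes. With either 10 Gy array left out 25 members were lower after 2 Gy and 28 after 5x2 Gy, against 20% and 32.5% of all genes, and 3 values were called higher, that of Pola2 after 2 Gy (adjusted p = 0.0317) and those of Rfc2 (adjusted p = 0.0216) and Chaf1a (adjusted p = 0.0108) after 5x2 Gy. After 10 Gy 16 members were lower without its replicate 1 and 34 without its replicate 2, against 19.7% and 26.3% of all genes. Leaving out 2 Gy replicate 1, 2 or 3 left 3, 1 and 1 members lower after 2 Gy, against 3.24%, 1.4% and 1.16% of all genes, and leaving out 5x2 Gy replicate 3 left 5, against 4.97%. After 5x2 Gy 15 members were lower without its replicate 2 and 13 without its replicate 3, against 13.3% and 13.1% of all genes. The replication genes were brighter than most, 40 of 44 lying above the median intensity of the genes tested, and the 2 Gy result depended on the intensity-dependent normalization. With each array centred on its median and no loess, the median of all genes stood at 0.13 after 2 Gy, the median of the 44 members was -0.01, 1 member was lower (Chaf1b) and 4 were higher (Mcm6, Pola2, Pcna and Rfc2), against 4.77% and 22.1% of all genes.

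**Figure D1:**
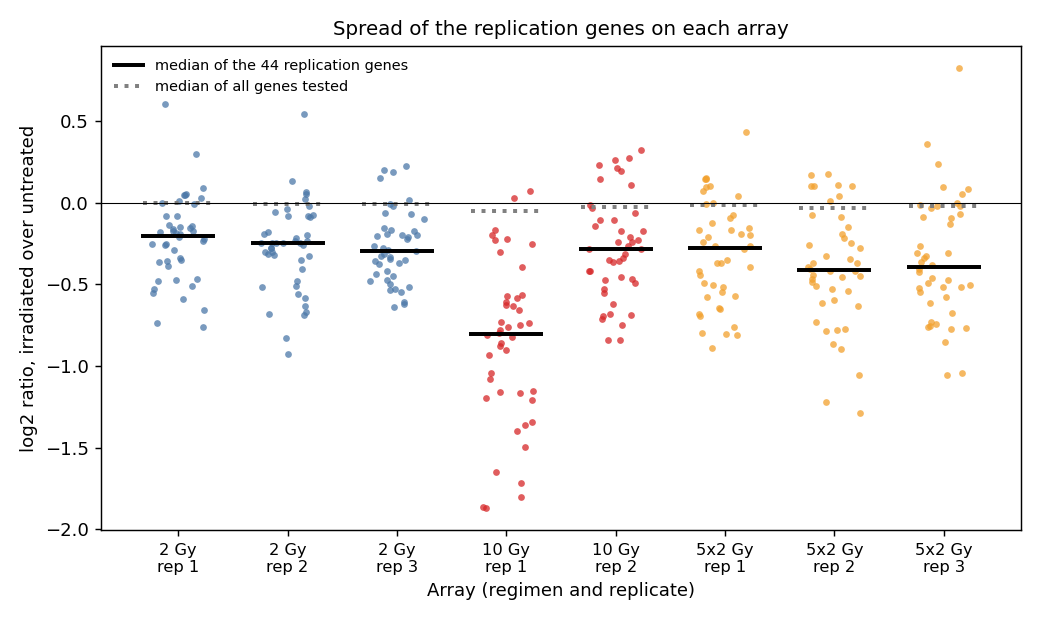
Log2 ratio of irradiated over untreated cells (y axis) on each of the 8 arrays (x axis), with 1 point for each of the 44 replication genes, a solid bar at their median and a dotted bar at the median of all 13411 genes tested. The solid bar lies below the dotted bar on every array, lowest at -0.80 on 10 Gy replicate 1.

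On single arrays the median of the 44 genes was -0.20, -0.25 and -0.29 after 2 Gy, -0.80 and -0.29 after 10 Gy, and -0.28, -0.41 and -0.39 after 5x2 Gy. Between 35 and 42 of the 44 lay below 0 on each array, which was between 79.5% and 95.5% of them, where 50.7% to 54.4% of all genes did. Below 0 on all 8 arrays lay 23 of 44 members, against 15.2% of all genes tested. Called lower in all 3 regimens were 7 members (against 4.03% of all genes), namely Orc6, Mcm2, Mcm4, Pole2, Rfc4, Lig1 and Uhrf1. A further 10 were lower in 2 regimens, 15 in 1 regimen and 12 in none (27.3%, against 69.3% of all genes). Below 0 on every array of a regimen lay 32 members after 2 Gy, 34 after 10 Gy and 33 after 5x2 Gy, against 33.1%, 33.5% and 40% of all genes. In the moderated F test of the 3 regimens together 31 of 44 passed, against 49.5% of all genes. The lowest of the 3 regimen means was that of 10 Gy for 28 members, that of 5x2 Gy for 11 and that of 2 Gy for 5.

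**Figure D2:**
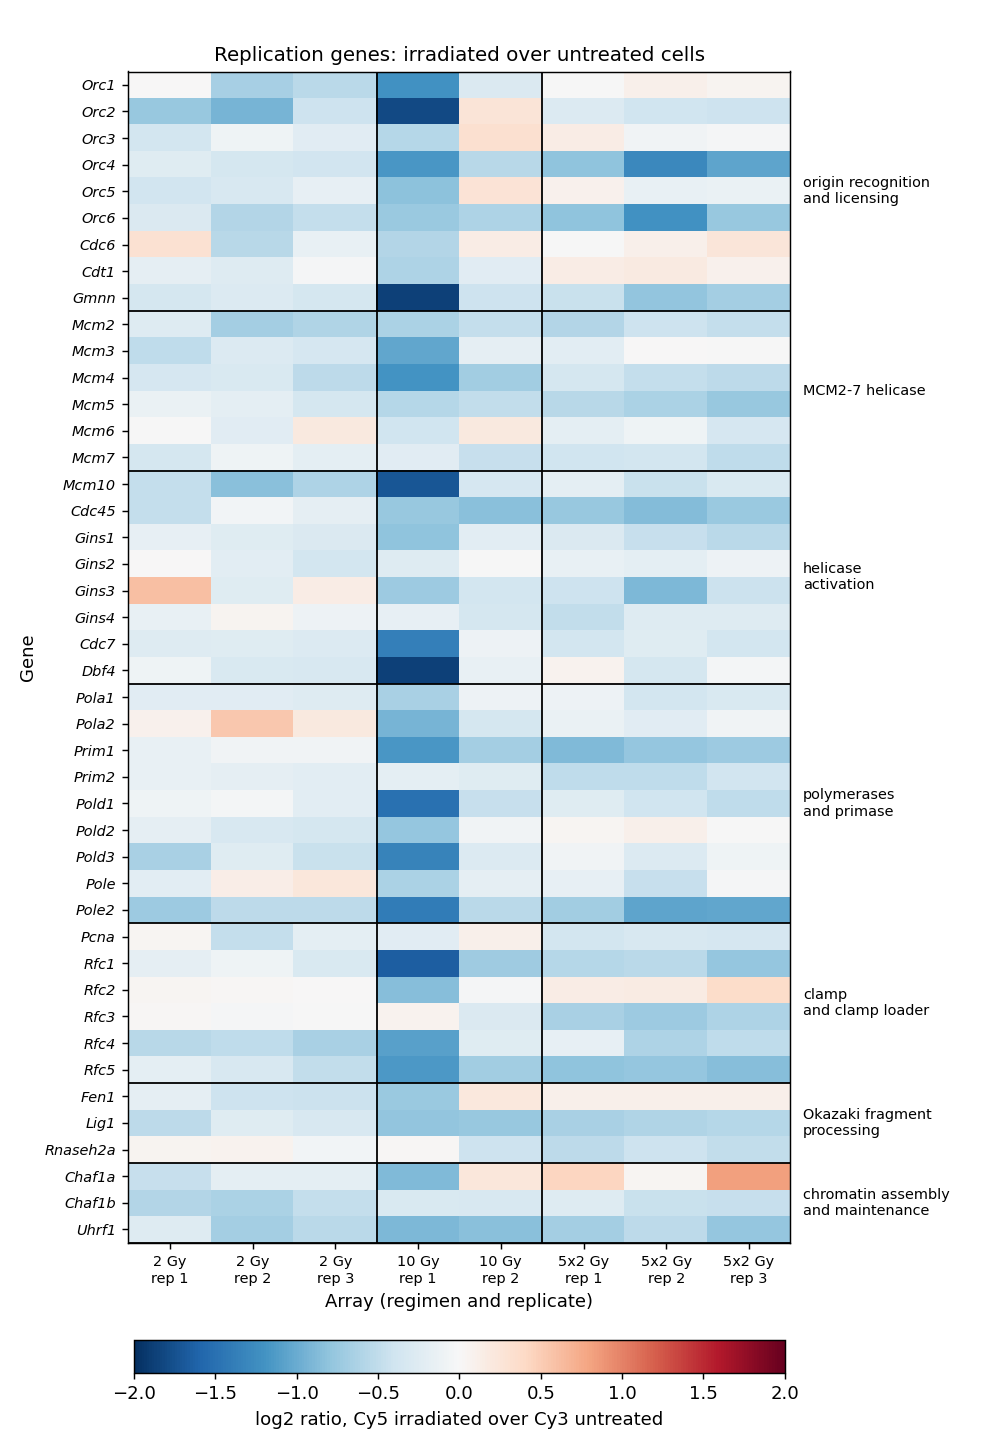
Log2 ratio of irradiated over untreated cells (colour, blue lower and red higher, scale from -2 to 2) for each of the 44 replication genes (one line each, grouped by role) on each of the 8 arrays (columns, by regimen). The 10 Gy replicate 1 column is the bluest in most lines, and red is seen mainly for Chaf1a after 5x2 Gy and Gins3 and Pola2 after 2 Gy.

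Origin recognition and licensing genes were split. Among the 9, 1 was lower after 2 Gy (11.1%), 5 after 10 Gy (55.6%) and 3 after 5x2 Gy (33.3%). Of all genes 7.93%, 15.8% and 23.4% were lower. The medians of the 9 were -0.32, -0.68 and -0.06. Orc6, the most loosely held subunit of the origin complex, had log2 ratios of -0.29, -0.58 and -0.48 after 2 Gy, -0.74 and -0.62 after 10 Gy and -0.81, -1.22 and -0.76 after 5x2 Gy. It lay below 0 on all 8 arrays and lowest after 5x2 Gy, and was 1.37-fold lower (log2 -0.45 ± 0.11, adjusted p = 0.0239) after 2 Gy, 1.6-fold lower (log2 -0.68 ± 0.14, adjusted p = 0.00611) after 10 Gy and 1.9-fold lower (log2 -0.93 ± 0.11, adjusted p = 0.000432) after 5x2 Gy, though its 2 Gy mean was 0.0040 with median centring. The probe of Orc6 carried a scanner flag on 4 of 8 arrays, and flagged spots were kept. Orc4, an ATPase-family subunit of the same complex, had -0.24, -0.35 and -0.38 after 2 Gy, -1.17 and -0.55 after 10 Gy and -0.80, -1.29 and -1.06 after 5x2 Gy. The 2 Gy arrays lay above all 5 others, and Orc4 was 1.81-fold lower (log2 -0.86 ± 0.16, adjusted p = 0.00445) after 10 Gy and 2.07-fold lower (log2 -1.05 ± 0.13, adjusted p = 0.000502) after 5x2 Gy, while the 2 Gy value did not pass (adjusted p = 0.12). The brightest of its 4 kept probes gave these values, and the dimmest averaged 0.34 after 5x2 Gy.

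Orc1, an ATPase subunit of the origin complex whose level follows the cell cycle in human cells, had 0.01, -0.67 and -0.54 after 2 Gy, -1.21 and -0.29 after 10 Gy and -0.01, 0.10 and 0.05 after 5x2 Gy. It was 1.68-fold lower (log2 -0.75 ± 0.21, adjusted p = 0.028) after 10 Gy, where replicate 1 was far below replicate 2, and after 5x2 Gy its 3 arrays lay around 0 (log2 0.05 ± 0.17, adjusted p = 0.847). Gmnn encodes geminin, which binds Cdt1 and blocks a further round of licensing, and had -0.35, -0.28 and -0.36 after 2 Gy, -1.87 and -0.42 after 10 Gy and -0.44, -0.79 and -0.68 after 5x2 Gy. All 8 arrays lay below 0, with 10 Gy replicate 1 far below the others, and Gmnn was 2.21-fold lower (log2 -1.14 ± 0.26, adjusted p = 0.0107) after 10 Gy and 1.55-fold lower (log2 -0.63 ± 0.21, adjusted p = 0.0372) after 5x2 Gy. Cdt1, the loader that geminin restrains, had -0.17, -0.26 and -0.02 after 2 Gy, -0.61 and -0.23 after 10 Gy and 0.14, 0.17 and 0.08 after 5x2 Gy. It was 1.34-fold lower (log2 -0.42 ± 0.12, adjusted p = 0.0297) after 10 Gy, and its 5x2 Gy arrays all lay above 0 without passing (adjusted p = 0.309).

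Cdc6, the ATPase that loads the helicase together with Cdt1, had 0.30, -0.56 and -0.15 after 2 Gy, -0.58 and 0.14 after 10 Gy and -0.0011, 0.10 and 0.24 after 5x2 Gy. Arrays of the same regimen fell on both sides of 0 in each regimen, and no regimen passed (log2 -0.22 ± 0.21, adjusted p = 0.462 after 10 Gy). Orc2, Orc3 and Orc5, the remaining subunits of the origin complex, passed in no regimen. Orc2 had the widest gap between the 10 Gy arrays of all 44 genes, -1.80 on replicate 1 and 0.26 on replicate 2. The Cdc6 promoter printed above holds a match to the E2F motif.

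Most helicase subunits were lower after 10 Gy and after 5x2 Gy. Of Mcm2 to Mcm7, which form the ring that unwinds DNA, 2 of 6 were lower after 2 Gy (33.3%), 5 after 10 Gy (83.3%) and 4 after 5x2 Gy (66.7%). This compares with 7.93%, 15.8% and 23.4% of all genes. The medians of the 6 were -0.30, -0.54 and -0.44. Mcm4 had -0.34, -0.30 and -0.52 after 2 Gy, -1.20 and -0.69 after 10 Gy and -0.35, -0.48 and -0.52 after 5x2 Gy. Every array lay below 0, the 10 Gy arrays below all others, and Mcm4 was 1.31-fold lower (log2 -0.39 ± 0.11, adjusted p = 0.0411) after 2 Gy, 1.92-fold lower (log2 -0.94 ± 0.13, adjusted p = 0.00127) after 10 Gy and 1.37-fold lower (log2 -0.45 ± 0.11, adjusted p = 0.0101) after 5x2 Gy, though its 2 Gy mean was 0.10 with median centring. Mcm2 had -0.25, -0.69 and -0.61 after 2 Gy, -0.63 and -0.48 after 10 Gy and -0.58, -0.42 and -0.47 after 5x2 Gy. The 3 regimens overlapped, and Mcm2 was 1.43-fold lower (log2 -0.52 ± 0.10, adjusted p = 0.0112) after 2 Gy, 1.47-fold lower (log2 -0.55 ± 0.13, adjusted p = 0.0115) after 10 Gy and 1.4-fold lower (log2 -0.49 ± 0.10, adjusted p = 0.00536) after 5x2 Gy.

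Mcm5, whose promoter carries the pair of overlapping matches, had -0.14, -0.20 and -0.35 after 2 Gy, -0.57 and -0.49 after 10 Gy and -0.55, -0.63 and -0.76 after 5x2 Gy. The 2 Gy arrays lay above the other 5 arrays, and Mcm5 was 1.45-fold lower (log2 -0.53 ± 0.11, adjusted p = 0.0069) after 10 Gy and 1.57-fold lower (log2 -0.65 ± 0.09, adjusted p = 0.000768) after 5x2 Gy, though its 10 Gy mean was 0.0078 with median centring. Mcm7 was lower after 10 Gy (log2 -0.35 ± 0.12, adjusted p = 0.0493) and 5x2 Gy (log2 -0.42 ± 0.09, adjusted p = 0.00677). Mcm3 was lower only by the 10 Gy test (log2 -0.61 ± 0.18, adjusted p = 0.0315), where its arrays stood at -1.04 and -0.18. Its 5x2 Gy mean was -0.07. A second probe of Mcm3, almost as bright (mean log2 intensity 12.66 against 12.73), averaged -0.40 after 2 Gy, -0.65 after 10 Gy and -0.33 after 5x2 Gy. Mcm6 passed in no regimen, with means of -0.02, -0.10 and -0.21.

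Of the 8 factors that switch the helicase on, 0 passed after 2 Gy by limma, where 2 had an unadjusted p under 0.05. After 10 Gy 5 were lower (62.5%) and after 5x2 Gy 4 (50%). Of all genes 7.93%, 15.8% and 23.4% were lower in the 3 regimens. Cdc45, the helicase cofactor that stays with the moving fork, had -0.48, -0.06 and -0.17 after 2 Gy, -0.76 and -0.84 after 10 Gy and -0.76, -0.87 and -0.74 after 5x2 Gy. The 10 Gy and 5x2 Gy arrays lay together below all 2 Gy arrays, and Cdc45 was 1.74-fold lower (log2 -0.80 ± 0.12, adjusted p = 0.0017) after 10 Gy and 1.73-fold lower (log2 -0.79 ± 0.10, adjusted p = 0.000545) after 5x2 Gy, with no pass after 2 Gy (adjusted p = 0.129). Mcm10, which helps start the helicase, was 2.04-fold lower (log2 -1.03 ± 0.25, adjusted p = 0.0155) after 10 Gy, with arrays at -1.72 and -0.34.

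The kinase Cdc7 and its activator Dbf4 were lower after 10 Gy (log2 -0.73 ± 0.23, adjusted p = 0.0372 and log2 -1.01 ± 0.31, adjusted p = 0.0358), in each case with replicate 1 over 1 log2 unit below replicate 2. A dimmer probe of Dbf4 averaged 0.23 after 10 Gy. The irradiated signal of Cdc7 was above background on 6 of 8 arrays. In the GINS complex, the scaffold between helicase and polymerase, Gins1 was lower after 10 Gy (log2 -0.51 ± 0.14, adjusted p = 0.0271) and after 5x2 Gy (log2 -0.43 ± 0.12, adjusted p = 0.017). Gins3 and Gins4 were lower after 5x2 Gy (log2 -0.58 ± 0.16, adjusted p = 0.0188 and log2 -0.34 ± 0.09, adjusted p = 0.0173), and Gins2 passed in no regimen.

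The polymerase and primase genes included both members that were lower after 10 Gy than after 2 Gy. Of the 9, 1 was lower after 2 Gy (11.1%), 5 after 10 Gy (55.6%) and 3 after 5x2 Gy (33.3%), against 7.93%, 15.8% and 23.4% of all genes. All 9 lay below 0 on both 10 Gy arrays, as did 33.5% of all genes. Prim1, the catalytic primase subunit that makes the RNA primers, had -0.16, -0.08 and -0.07 after 2 Gy, -1.16 and -0.68 after 10 Gy and -0.89, -0.78 and -0.73 after 5x2 Gy. The 2 Gy arrays lay just below 0 and above all 5 others, and Prim1 was 1.89-fold lower (log2 -0.92 ± 0.13, adjusted p = 0.0011) after 10 Gy and 1.74-fold lower (log2 -0.80 ± 0.10, adjusted p = 0.000619) after 5x2 Gy, against log2 -0.10 after 2 Gy (adjusted p = 0.539). Prim2, the other primase subunit, had -0.15, -0.18 and -0.21 after 2 Gy, -0.20 and -0.24 after 10 Gy and -0.50, -0.51 and -0.38 after 5x2 Gy. It was below 0 on all 8 arrays and lowest after 5x2 Gy, the only regimen in which it passed (log2 -0.47 ± 0.08, adjusted p = 0.00229).

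Pola2, an accessory subunit of polymerase alpha, had 0.09, 0.54 and 0.20 after 2 Gy, -0.93 and -0.36 after 10 Gy and -0.13, -0.22 and -0.07 after 5x2 Gy. Its 2 Gy arrays all lay above 0 and its other arrays below 0, and it was 1.56-fold lower (log2 -0.64 ± 0.16, adjusted p = 0.0144) after 10 Gy, while 2 Gy did not pass (log2 0.28 ± 0.13, adjusted p = 0.161). Pole2, a subunit of the leading-strand polymerase epsilon, had -0.73, -0.52 and -0.53 after 2 Gy, -1.40 and -0.53 after 10 Gy and -0.69, -1.06 and -1.05 after 5x2 Gy. Every array was at or below -0.52, and Pole2 was 1.51-fold lower (log2 -0.59 ± 0.15, adjusted p = 0.0283) after 2 Gy, 1.95-fold lower (log2 -0.97 ± 0.19, adjusted p = 0.00522) after 10 Gy and 1.91-fold lower (log2 -0.93 ± 0.15, adjusted p = 0.00168) after 5x2 Gy.

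Pold1, the catalytic subunit of the lagging-strand polymerase delta, was 1.96-fold lower (log2 -0.97 ± 0.20, adjusted p = 0.00699) after 10 Gy, with arrays at -1.50 and -0.45. A second probe of Pold1, a little dimmer, averaged 0.19 after 2 Gy, -0.14 after 10 Gy and 0.67 after 5x2 Gy. Pold3, an accessory subunit of polymerase delta, was lower after 10 Gy (log2 -0.80 ± 0.21, adjusted p = 0.0205), with arrays at -1.34 and -0.27 and an irradiated signal above background on 7 of 8 arrays. Its 5x2 Gy mean was -0.15, where a second, dimmer probe averaged -0.68 and the dimmest 0.14. After 10 Gy these probes averaged -0.79 and -0.03. Pola1, Pold2 and Pole passed in no regimen, with 10 Gy means of -0.38, -0.42 and -0.41.

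**Figure D3:**
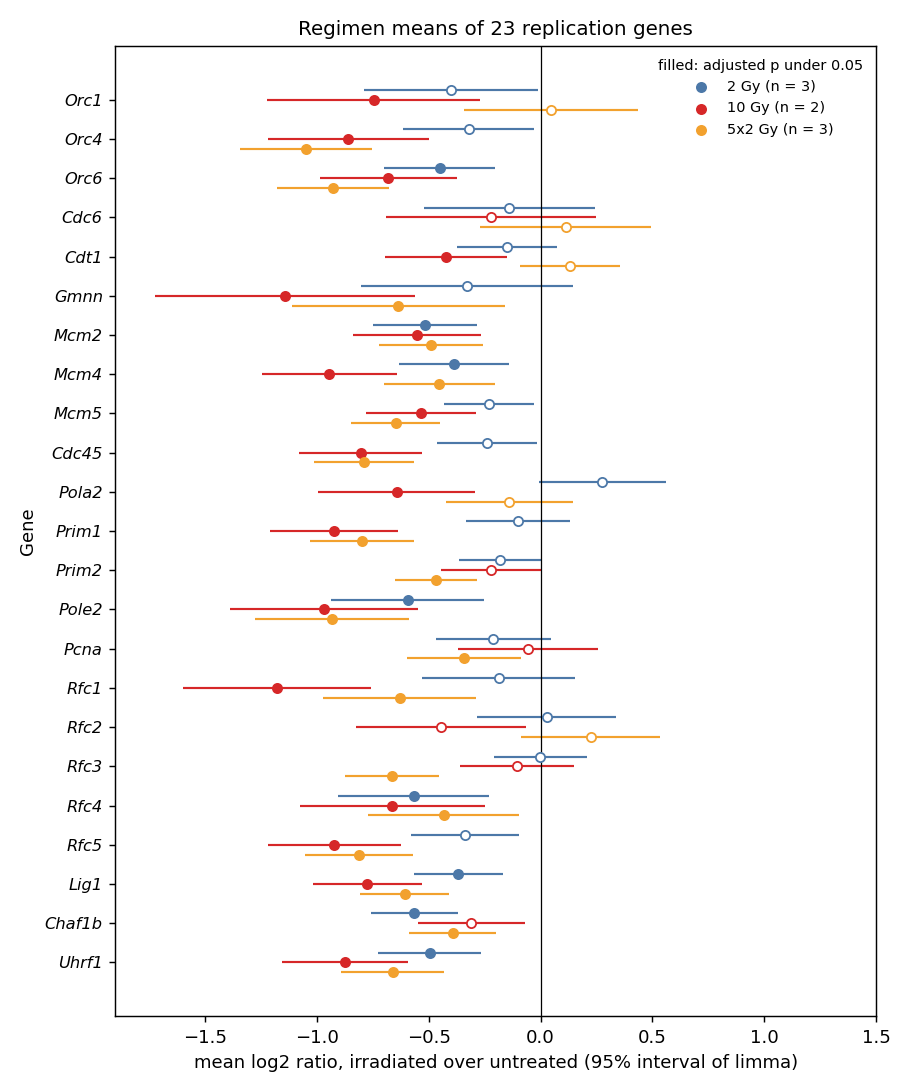
Mean log2 ratio of irradiated over untreated cells (x axis) with its 95% interval from limma for 23 replication genes (y axis) after 2 Gy (3 arrays), 10 Gy (2 arrays) and 5x2 Gy (3 arrays). Filled points had an adjusted p under 0.05, and none of these lies above 0. Prim1, Cdc45, Rfc5 and Orc4 show filled 10 Gy and 5x2 Gy points left of an open 2 Gy point, and Rfc3 stands near 0 except after 5x2 Gy.

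Most clamp and clamp loader genes were lower after 5x2 Gy. Of Pcna and the replication factor C subunits Rfc1 to Rfc5, 1 of 6 was lower after 2 Gy (16.7%), 3 after 10 Gy (50%) and 5 after 5x2 Gy (83.3%). The shares of all genes were 7.93%, 15.8% and 23.4%. Rfc5, a small subunit of the loader, had -0.19, -0.32 and -0.50 after 2 Gy, -1.15 and -0.69 after 10 Gy and -0.80, -0.78 and -0.85 after 5x2 Gy. All 8 arrays lay below 0 with the 2 Gy arrays above the others, and Rfc5 was 1.89-fold lower (log2 -0.92 ± 0.13, adjusted p = 0.00129) after 10 Gy and 1.75-fold lower (log2 -0.81 ± 0.11, adjusted p = 0.00067) after 5x2 Gy, while 2 Gy did not pass (adjusted p = 0.0603). Rfc3, another small subunit, had 0.03, -0.02 and -0.01 after 2 Gy, 0.07 and -0.28 after 10 Gy and -0.64, -0.73 and -0.62 after 5x2 Gy. Its 2 Gy and 10 Gy arrays lay around 0 and its 5x2 Gy arrays below all of them, and it was 1.58-fold lower (log2 -0.66 ± 0.09, adjusted p = 0.000848) after 5x2 Gy.

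Rfc1, the large subunit that opens the clamp, had -0.18, -0.09 and -0.30 after 2 Gy, -1.65 and -0.71 after 10 Gy and -0.57, -0.54 and -0.78 after 5x2 Gy. The 10 Gy replicates differed by over 0.9 log2 units, and Rfc1 was 2.26-fold lower (log2 -1.18 ± 0.19, adjusted p = 0.00204) after 10 Gy and 1.55-fold lower (log2 -0.63 ± 0.15, adjusted p = 0.00993) after 5x2 Gy. Rfc4 had -0.55, -0.51 and -0.64 after 2 Gy, -1.08 and -0.24 after 10 Gy and -0.17, -0.62 and -0.51 after 5x2 Gy. Every array lay below 0 and the regimens overlapped, and Rfc4 was lower after 2 Gy (log2 -0.57 ± 0.15, adjusted p = 0.0311), 10 Gy (log2 -0.66 ± 0.18, adjusted p = 0.0252) and 5x2 Gy (log2 -0.43 ± 0.15, adjusted p = 0.0434). Rfc2 had 0.05, 0.02 and 0.01 after 2 Gy, -0.86 and -0.03 after 10 Gy and 0.14, 0.17 and 0.36 after 5x2 Gy. It went against the rest of the loader after 5x2 Gy, with all 3 arrays above 0, and passed in no regimen (adjusted p = 0.221 after 5x2 Gy and 0.0773 after 10 Gy).

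Pcna, the sliding clamp itself, had 0.05, -0.48 and -0.20 after 2 Gy, -0.22 and 0.11 after 10 Gy and -0.37, -0.33 and -0.33 after 5x2 Gy. It was 1.27-fold lower (log2 -0.34 ± 0.11, adjusted p = 0.0375) after 5x2 Gy and not after 2 Gy or 10 Gy. Its signal was saturated on 6 of 8 arrays, so these ratios are inexact, and with median centring its mean was 0.42 after 2 Gy and 0.66 after 10 Gy.

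Of the genes that finish the lagging strand, Lig1, which encodes the ligase that seals nicks between Okazaki fragments, had -0.53, -0.25 and -0.33 after 2 Gy, -0.80 and -0.75 after 10 Gy and -0.65, -0.60 and -0.58 after 5x2 Gy. All 8 arrays lay below 0 and the 2 Gy arrays lay above the rest, and Lig1 was 1.29-fold lower (log2 -0.37 ± 0.09, adjusted p = 0.0217) after 2 Gy, 1.71-fold lower (log2 -0.77 ± 0.11, adjusted p = 0.00115) after 10 Gy and 1.52-fold lower (log2 -0.61 ± 0.09, adjusted p = 0.000971) after 5x2 Gy. Its p in the F test of the 3 regimens was the smallest of the 44. Rnaseh2a, the catalytic subunit of the ribonuclease that removes RNA from DNA hybrids, was lower after 5x2 Gy (log2 -0.48 ± 0.10, adjusted p = 0.00535). Fen1, the flap endonuclease, passed in no regimen.

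The 3 chromatin genes did not share 1 pattern. Uhrf1, which brings the maintenance methyltransferase to new DNA, had -0.26, -0.68 and -0.54 after 2 Gy, -0.90 and -0.84 after 10 Gy and -0.68, -0.53 and -0.77 after 5x2 Gy. Every array lay below 0, and Uhrf1 was 1.41-fold lower (log2 -0.50 ± 0.10, adjusted p = 0.0122) after 2 Gy, 1.83-fold lower (log2 -0.87 ± 0.13, adjusted p = 0.0013) after 10 Gy and 1.58-fold lower (log2 -0.66 ± 0.10, adjusted p = 0.0013) after 5x2 Gy. A second probe for the same gene, almost as bright (mean log2 intensity 12.56 against 12.69), averaged -0.28, -0.18 and 0.14 in these regimens. Chaf1b, the middle subunit of chromatin assembly factor 1, had -0.59, -0.63 and -0.48 after 2 Gy, -0.30 and -0.31 after 10 Gy and -0.26, -0.45 and -0.46 after 5x2 Gy. Its 2 Gy arrays lay below all others, and it was 1.48-fold lower (log2 -0.56 ± 0.09, adjusted p = 0.00381) after 2 Gy and 1.31-fold lower (log2 -0.39 ± 0.09, adjusted p = 0.00657) after 5x2 Gy, with no pass after 10 Gy (adjusted p = 0.0552). Chaf1a, its large partner, passed in no regimen, and its 3 arrays after 5x2 Gy lay above 0 (log2 0.43 ± 0.20, adjusted p = 0.109).

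**Figure D4:**
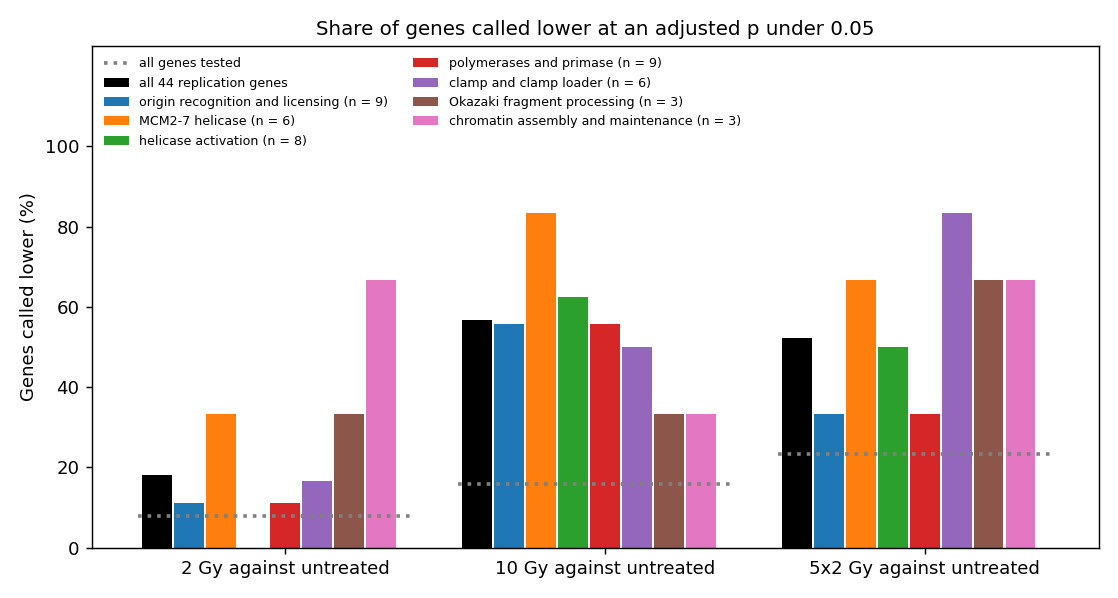
Share of genes called lower than in untreated cells at an adjusted p under 0.05 (y axis, from 0) in each regimen (x axis) for all 44 replication genes (black bars) and for each of 7 roles (coloured bars), with a dotted line at the share of all 13411 genes tested. The black bars stand at 18.2%, 56.8% and 52.3% over dotted lines at 7.93%, 15.8% and 23.4%, and roles of 3 genes can only take 4 heights.

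The 2 arrays of 10 Gy gave different responses. Over all 13411 genes the log2 ratios of replicate 2 had a Pearson correlation of 0.43 with replicate 1, against 0.85, 0.75 and 0.80 with the 3 arrays of 5x2 Gy, which lie on its slide. Replicate 1 had correlations of 0.51, 0.39 and 0.45 with the arrays of 2 Gy on its own slide, and arrays of the same regimen otherwise had 0.65 to 0.89. Genes are not independent replicates, and every array shares the dye orientation, so these values describe the arrays only. Replicate 1, on slide 1, was lower than replicate 2, on slide 2, for 37 of 44 members (84.1%), against 52.4% of all genes tested, and the median gap was -0.58 log2 units against -0.03. For 9 members (20.5%) the gap exceeded 1 log2 unit, against 6.77% of all genes, and these were Orc2, Dbf4, Gmnn, Mcm10, Cdc7, Chaf1a, Orc5, Pold3 and Pold1. Lig1, Uhrf1, Cdc45, Orc6 and Mcm5 instead had near-equal values on both arrays. Without replicate 1 the median of the members after 10 Gy was -0.29 and 16 were lower, and without replicate 2 it was -0.80. Cdkn1a was also farther from 0 on replicate 1 (3.73) than on replicate 2 (1.47), and the part that the slide plays in this gap was not tested.

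**Figure D5:**
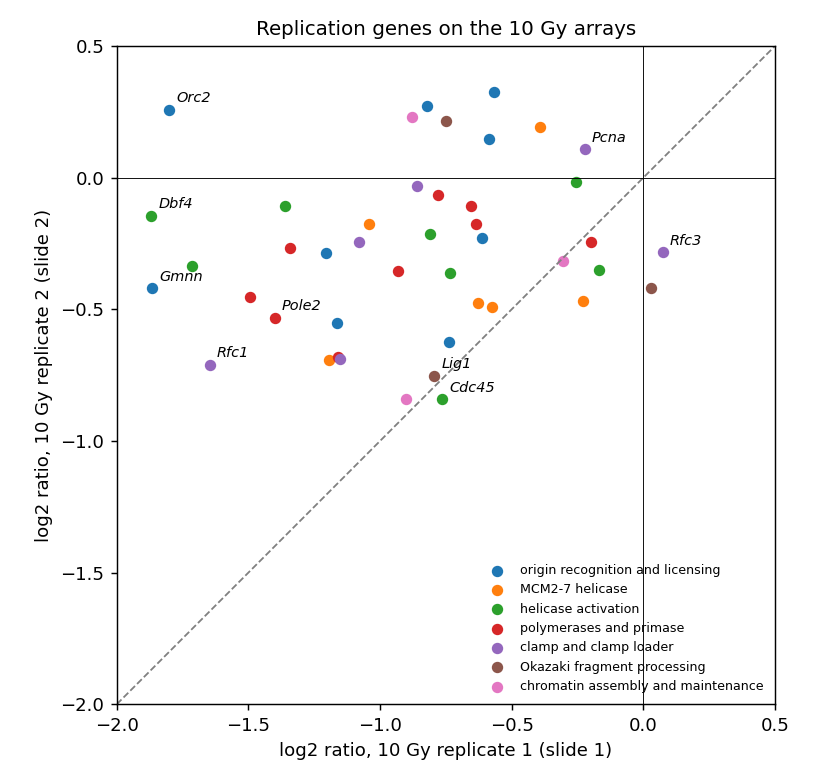
Log2 ratio of irradiated over untreated cells on 10 Gy replicate 1 (x axis, slide 1) and 10 Gy replicate 2 (y axis, slide 2) for the 44 replication genes, coloured by role, with the line of equal values dashed. Most points lie above the dashed line, 37 of 44, with Orc2, Dbf4 and Gmnn farthest from it, while Lig1 and Cdc45 lie near it.

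Between regimens few replication genes differed once all genes were adjusted for. With 10 Gy set against 2 Gy, 2 of 44 were lower, Pola2 and Prim1, against 1.52% of all genes called lower. Prim1 averaged -0.92 after 10 Gy and -0.10 after 2 Gy, a difference of -0.82 ± 0.16 (adjusted p = 0.0406). Pola2 averaged -0.64 after 10 Gy and 0.28 after 2 Gy, a difference of -0.92 ± 0.20 (adjusted p = 0.0467). For both genes each 10 Gy array lay below each 2 Gy array. With any 1 array of 2 Gy or 5x2 Gy left out neither passed, with adjusted p between 0.0783 and 0.172. Rfc1 had the next smallest p, with a difference of -0.99 ± 0.24 that did not pass (adjusted p = 0.0638). Over the 44 genes the median difference was -0.28, and 16 had all 10 Gy arrays below all 2 Gy arrays, a pattern that 18.2% of all genes showed in that direction, while 1 had them all above, as did 14% of all genes. Within slide 1, 10 Gy replicate 1 minus the 2 Gy mean had a median of -0.53 and was negative for 41 of 44 members, against a median of -0.04 for all genes. With slide as a fixed block, or with 10 Gy replicate 2 left out, 25 members were lower after 10 Gy than after 2 Gy, and 20% of all genes were. With 10 Gy replicate 1 left out 3 members were lower and 3 higher (Orc2, Orc5 and Fen1), against 6.66% and 4.57% of all genes.

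With 5x2 Gy set against 2 Gy, 1 of 44 was lower, Rfc3, against 0.925% of all genes. Rfc3 averaged -0.66 after 5x2 Gy and -0.0002 after 2 Gy, a difference of -0.66 ± 0.13 (adjusted p = 0.0489), and each 5x2 Gy array lay below each 2 Gy array. With any 1 of these 6 arrays left out it did not pass, with adjusted p between 0.122 and 0.203. Prim1 (log2 -0.70 ± 0.15, adjusted p = 0.054) and Orc4 (log2 -0.73 ± 0.19, adjusted p = 0.0671) followed without passing. For 17 members all 5x2 Gy arrays lay below all 2 Gy arrays, as for 25.9% of all genes. For 11 members, Orc2, Orc3, Orc5, Cdt1, Mcm3, Mcm10, Pold2, Rfc2, Fen1, Chaf1a and Chaf1b, they lay above all 2 Gy arrays, as for 21.1% of all genes. With either 10 Gy array left out, so that the 10 Gy pair adds nothing to the estimate of spread, 11 members were lower and 3 higher (Pold2, Fen1 and Chaf1a) after 5x2 Gy than after 2 Gy, against 17.8% and 12.1% of all genes. These regimens share no slide, so no within-slide value exists, and with slide as a fixed block, fitted through the 10 Gy pair, the difference of Rfc3 was -0.30 (adjusted p = 0.316).

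With 5x2 Gy set against 10 Gy, at the same total dose, 0 of 44 differed by limma, and 0% of all genes did. At an unadjusted p under 0.05, 1 member was lower and 12 were higher after 5x2 Gy, as were 1034 and 1207 of all 13411 genes. The 3 smallest p-values belonged to Rfc3, Cdt1 and Rfc2, with differences of -0.56 ± 0.15 (95% interval -0.89 to -0.23), 0.55 ± 0.16 (95% interval 0.20 to 0.91) and 0.67 ± 0.22 (95% interval 0.18 to 1.16). The median difference was 0.18, and 4 members had all 5x2 Gy arrays below both 10 Gy arrays, as did 14.5% of all genes, while 8 had them above both, as did 15.5%. Within slide 2, the 5x2 Gy mean minus 10 Gy replicate 2 had a median of -0.07 and was negative for 26 members and positive for 18, so the sign of the median rested on 10 Gy replicate 1. With 10 Gy replicate 2 left out 2 members were lower and 21 higher after 5x2 Gy than after 10 Gy, against 20.1% and 23.1% of all genes.

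Other genes of DNA synthesis were counted in the same way. Of 38 further replication genes, such as Dna2, a nuclease of Okazaki fragments, Rif1, a regulator of origin timing, and Mcmbp, an MCM-binding protein, 7 were lower and 1 higher after 2 Gy, 20 lower and 1 higher after 10 Gy, and 21 lower and 1 higher after 5x2 Gy, where 7.93%, 15.8% and 23.4% of all genes were lower. Dna2 was 1.98-fold lower (log2 -0.98 ± 0.13, adjusted p = 0.00095) after 10 Gy and 2.09-fold lower (log2 -1.07 ± 0.11, adjusted p = 0.000223) after 5x2 Gy, and Rif1 was 2.35-fold lower (log2 -1.23 ± 0.16, adjusted p = 0.000896) and 2.5-fold lower (log2 -1.32 ± 0.13, adjusted p = 0.000223). The higher gene was Pold4, a small subunit of polymerase delta, after 2 Gy (log2 0.50 ± 0.12, adjusted p = 0.0248) and 10 Gy (log2 0.54 ± 0.15, adjusted p = 0.0255), and Chtf8, part of an alternative clamp loader, after 5x2 Gy (log2 0.47 ± 0.12, adjusted p = 0.0132). Of 9 tested genes for deoxynucleotide supply, 6 were lower after 2 Gy, 4 after 10 Gy and 5 after 5x2 Gy. Tyms, thymidylate synthase, was 1.98-fold lower (log2 -0.99 ± 0.10, adjusted p = 0.000223) after 5x2 Gy.

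Genes of mitosis were set beside these. The replication genes had medians of -0.24 after 2 Gy, -0.55 after 10 Gy and -0.37 after 5x2 Gy, and 20 mitotic genes, which serve chromosome segregation and division, had medians of 0.12, -1.40 and -0.26. Of the mitotic genes 0 were lower after 2 Gy by limma, also at an unadjusted p under 0.05, and 2 were higher, Nusap1 and Aurkb. Of all genes 7.93% were called lower and 8.99% higher after 2 Gy. After 10 Gy 19 of 20 were lower and after 5x2 Gy 6 of 20, against 15.8% and 23.4% of all genes. Their median was -2.05 on 10 Gy replicate 1 and -0.78 on replicate 2. Top2a, the topoisomerase that untangles sister chromatids, was 2.67-fold lower (log2 -1.42 ± 0.18, adjusted p = 0.000814) after 10 Gy and 2.13-fold lower (log2 -1.09 ± 0.15, adjusted p = 0.000708) after 5x2 Gy. With 10 Gy set against 2 Gy, 2 of 44 replication genes and 10 of 20 mitotic genes were lower, against 1.52% of all genes. The difference between the lists was not tested.

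The E2F motif stood in the promoters of many replication genes, whether or not they were called. Of the 44 genes 36 had a promoter entry in RefSeq, each window reaching from 250 bases before to 50 after the start. A match was found in 16 of 36 (44.4%), against 2.6% of all 27025 genes with an entry and 4.52% of the 10393 that were also tested here. A gene counted if any of its windows held a match. The 16 were Cdc6, Cdt1, Gins3, Lig1, Mcm3, Mcm5, Mcm6, Mcm7, Orc1, Orc3, Pola1, Pold1, Pold3, Pole2, Rfc3 and Uhrf1. Their median was -0.23 after 2 Gy, -0.54 after 10 Gy and -0.32 after 5x2 Gy, against -0.29, -0.67 and -0.38 for the 20 without a match. At least 1 regimen was called lower for 12 of the 16 and for 15 of the 20. The letters CCAAT were found in 21 of 36 genes (58.3%), against 41.1% of all genes and 42.6% of those tested. The cell-cycle homology letters TTTGAA or TTCGAA were found in 9 of 36 (25%), against 21.7% of all genes and 16.4% of those tested. These 3 motifs share no letters that would let 1 match count for another, the forms of the E2F motif can overlap on opposite strands as in Mcm5, and a match describes letters, not binding.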

How the data were processed

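RNA of irradiated (Cy5) and untreated (Cy3) LLC1 cells was hybridised to 8 two-colour Agilent arrays of 45220 spots, 3 for 2 Gy, 2 for 10 Gy and 3 for 5x2 Gy, per the labels. The deposited scanner files hold foreground and background intensity for each channel, per the file headers. The deposited value table holds log2 ratios whose scale, centring and direction the labels do not state. Set against the scanner values they correlated at 0.998 to 1.000 with slopes of 0.993 to 0.999, and they served as an alternative.

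From the intensities, background was corrected by normexp (offset 50), each array was normalized by loess, and repeated spots were averaged. Probes were retained where 1 channel exceeded the median of 153 negative controls by 2.6 robust SDs on at least 2 arrays, and a gene took its brightest retained probe. Spots flagged in the scanner files were kept at full weight. Flags stood on 8 arrays for Pcna, 6 for Mcm7, 5 for Mcm6 and Pold2, 4 for Orc6 and Mcm3 and 2 for Mcm5. The other members had at most 1 flagged array. The effect of leaving flagged spots out was not tested. Of 41174 probes 27191 matched 1 current RefSeq symbol. The rest, among them 712 that matched several, retained the array's own symbol (7753) or carried no symbol (6230). The number of arrays limits the precision. A single fit by limma 3.58.1 in R 4.3.3, with 1 mean for each regimen, gave log2 ratios, standard errors, 95% intervals and p-values, adjusted by Benjamini-Hochberg over 13411 genes, with the p-value threshold at 0.05. On data simulated with the real spread of each of the 13411 genes, this fit recovered 68% of 100 genes changed by 1 log2 unit. Of 100 genes changed by 0.5 it recovered 16%, with 1 false call, all for 10 Gy against untreated. The simulated noise was independent and equally wide on every array. On the real arrays the SD of all genes was 0.69 on 10 Gy replicate 1 and 0.33 on 2 Gy replicate 1. These rates therefore need not hold for the real 10 Gy arrays. Full values were given for the 16 members with the smallest F-test p, for Pcna, Mcm2, Mcm4, Cdc6, Cdt1, Gmnn and Orc1, and for up to 3 members with the smallest p in each comparison of regimens. The members, gene lists and motifs were chosen with earlier results of these data known. Alternatives covered background, normalization, filter, probes, array weights, slide, replicate number and each array left out. Of the 12 members with several kept probes, those probes differed in sign for 5 after 2 Gy, 1 after 10 Gy and 8 after 5x2 Gy.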

Additional observations from a re-analysis of the deposited data

Results flagged for a closer look

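Differences between regimens that passed the test were found for 3 replication genes. Prim1 was lower after 10 Gy than after 2 Gy by a log2 difference of -0.8217 (adjusted p = 0.0406), with regimen means of -0.92 and -0.10, and each 10 Gy array lay below each 2 Gy array. Within slide 1 the difference was -1.06 for 10 Gy replicate 1. Over the 20 alternatives its adjusted p ranged from 0.000305 to 0.34, and it did not pass with any 1 array of 2 Gy or 5x2 Gy left out (0.0783 to 0.159).

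Pola2 was lower after 10 Gy than after 2 Gy by a log2 difference of -0.92 (adjusted p = 0.0467), with regimen means of -0.64 and 0.28 on opposite sides of 0. Within slide 1 the difference was -1.21, and its adjusted p ranged from 0.000611 to 0.429 over the alternatives, and it likewise did not pass with any 1 of those arrays left out (0.0922 to 0.172).

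Rfc3 was lower after 5x2 Gy than after 2 Gy by a log2 difference of -0.6623 (adjusted p = 0.0489), and each 5x2 Gy array lay below each 2 Gy array. Its adjusted p ranged from 0.000112 to 0.316 over the alternatives, it did not pass with any 1 array of 2 Gy or 5x2 Gy left out (0.122 to 0.203), and slide and regimen cannot be told apart for this pair within a slide. No regimen had the 4 arrays that a check for a stray array needs.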

How the results depend on the processing

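Counts below are members called lower, of 44, in the order 2 Gy, 10 Gy and 5x2 Gy against untreated (8, 25 and 23 as reported), and 10 Gy against 2 Gy, 5x2 Gy against 2 Gy and 5x2 Gy against 10 Gy (2, 1 and 0 as reported). A stricter filter changed no count. Array weights gave 31, 0, 29, 0, 18 and 0, against 27.2%, 0.604%, 35.8%, 0.00746%, 25.3% and 0% of all genes called lower. Separate fits of the arrays compared gave 23, 0, 29, 0, 11 and 0, against 17.8%, 0.947%, 32.7%, 0%, 17.8% and 0%. Members called higher numbered 1 after 2 Gy, 2 after 5x2 Gy and 9 for 5x2 Gy against 2 Gy with array weights, and 2 after 5x2 Gy and 3 for 5x2 Gy against 2 Gy in the separate fits. In the same order array weights called 27.1%, 30.9% and 19.5% of all genes higher, and the separate fits 27.2% and 12.1%. Median centring without loess gave 1, 20, 20, 3, 7 and 0, against 4.77%, 12.1%, 20%, 2.92%, 5.19% and 0% of all genes. It called 4 members higher after 2 Gy and 2 after 10 Gy, against 22.1% and 17.1% of all genes. Scale normalization gave 14, 19, 18, 0, 0 and 0, against 15.3%, 11.5%, 17.1%, 0.172%, 0.283% and 0% of all genes. The mean over probes gave 8, 23, 22, 2, 2 and 0, no background correction 8, 26, 23, 2, 2 and 0, no filter 8, 24, 23, 2, 2 and 0, and the deposited log2 values 8, 25, 23, 2, 2 and 0. In that order they called 8.1%, 6.87%, 5.98% and 6.83% of all genes lower after 2 Gy. The shares were 15.8%, 15.7%, 10.2% and 15.1% after 10 Gy, and 23.2%, 23.5%, 20.6% and 23.3% after 5x2 Gy. Slide as a fixed block gave 4, 35, 33, 25, 14 and 0, against 15.1%, 28.3%, 21.1%, 20%, 11.6% and 0% of all genes. After 2 Gy the share of members called lower was thus below that of all genes. That block called 6 members higher after 2 Gy, against 18.2% of all genes. Slide as a random block (correlation 0.697) gave 0, 12, 7, 17, 2 and 0, against 0.0895%, 5.81%, 3.42%, 13.9%, 1.25% and 0% of all genes.

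With the replicate number as a block the counts were 4, 18, 20, 0, 0 and 0, against 4.69%, 9.25%, 20.3%, 0%, 0% and 0% of all genes. Same-numbered arrays had correlations of deviations between -0.24 and 0.11, so the numbers were not taken to pair the samples. With 1 array left out the counts ranged from 1 to 25, 16 to 34, 13 to 28, 0 to 25, 0 to 11 and 0 to 2. Without 10 Gy replicate 2, 21 members were higher and 2 lower after 5x2 Gy than after 10 Gy. With either 10 Gy replicate left out 25 members were lower after 2 Gy, and 1 was higher after 2 Gy, 2 after 5x2 Gy and 3 for 5x2 Gy against 2 Gy. Without 10 Gy replicate 1, 3 members were higher after 10 Gy than after 2 Gy. Without any 1 of the 2 Gy arrays 1 to 3 members were lower after 2 Gy than untreated, and without 5x2 Gy replicate 3, 5 were. The F test gave 27 to 32 members.

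Of 46 called values of the genes given in full, 43 kept 1 direction under all 20 alternatives and 5 stayed called under all of them, those of Orc4, Orc6, Pole2, Prim1 and Rfc5 after 5x2 Gy. Over the 8 fits without 1 array these values kept their call 297 times and lost it 71 times, and over the other alternatives they kept it 447 times and lost it 102 times. With median centring Mcm4 (0.10) and Orc6 (0.0040) changed sign after 2 Gy and Mcm5 (0.0078) after 10 Gy, and Pcna was called higher (0.42 after 2 Gy and 0.66 after 10 Gy). With slide as a fixed block Gmnn was called higher after 2 Gy (0.39). The member median changed sign with that block after 2 Gy (0.0528) and for 5x2 Gy against 10 Gy (-0.0668), for which it also did under the random block (-0.00528) and when 10 Gy replicate 1 was left out (-0.0668, against 0.445 when replicate 2 was), and for 5x2 Gy against 2 Gy with scale normalization (0.0169). The cause of these changes was not tested.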

Other observations

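Some replication genes lay on opposite sides of 0 in 2 regimens on every array. The differences below did not pass the test with 1 spread shared by all 8 arrays. These genes were picked by this pattern from the same arrays, and the share of all genes with it was not counted. The wider pattern of every 5x2 Gy array above every 2 Gy array held for 21.1% of all genes. Chaf1a was above 0 on all 3 arrays of 5x2 Gy and below 0 on all 3 of 2 Gy, a difference of log2 0.72 ± 0.28, adjusted p = 0.154. Fen1, which lay between 0.10 and 0.11 after 5x2 Gy and between -0.44 and -0.18 after 2 Gy, differed by log2 0.44 ± 0.22, adjusted p = 0.23. Both passed in 4 of 20 alternatives, in the fit of these 6 arrays alone and with either 10 Gy array left out (adjusted p = 0.0131 for Chaf1a and 0.0123 for Fen1) and with array weights (0.000997 and 0.00113), and their adjusted p reached 0.952 and 0.651 in the others. Pola2, below 0 after 5x2 Gy and above 0 after 2 Gy (log2 -0.42 ± 0.18, adjusted p = 0.184), passed in 5 of 20. Rfc2 was above 0 after 5x2 Gy and below 0 after 10 Gy (log2 0.67 ± 0.22, adjusted p = 0.228), and above 0 after 2 Gy (log2 -0.47 ± 0.22, adjusted p = 0.264 for 10 Gy minus 2 Gy). Cdt1 was above 0 after 5x2 Gy and below 0 after both single doses, with differences of log2 0.28 ± 0.14, adjusted p = 0.235 against 2 Gy and log2 0.55 ± 0.16, adjusted p = 0.202 against 10 Gy. Against 10 Gy both Rfc2 (adjusted p = 0.000282) and Cdt1 (adjusted p = 0.00255) passed without 10 Gy replicate 2 and in no other alternative. For 10 Gy minus 2 Gy Rfc2 passed in 3 of 20, and for 5x2 Gy minus 2 Gy Cdt1 passed in 0 of 20 (lowest adjusted p = 0.0616).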
